A study of Homo sapiens with 6 samples.

Results

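The hypoxia response and glycolysis genes described here are 43 named genes, chosen by symbol from lists of hypoxia-induced genes and of glucose transport and glycolysis genes, out of 50550 rows of a gene count table. All 43 were found and all 43 were among the 21933 rows that passed the filter on low counts. They fall into 20 hypoxia genes (4 oxygen-sensing genes, 6 genes of secreted or surface proteins and 10 genes of intracellular proteins) and 23 glycolysis genes (4 transporters, 12 genes of upper glycolysis and its regulation, and 7 of lower glycolysis). RNA was sequenced from U2OS, an established human osteosarcoma cell line, in 3 libraries titled Lv_LINC00673 and 3 titled Lv_NC. The series' design names knockdown of the long noncoding RNA LINC00673 in U2OS cells, set against wild-type U2OS cells. The labels give no passage, oxygen level, glucose level, clone or time, and do not explain Lv or NC, so Lv_NC may or may not have received a vector. Whether libraries of a group are separate cultures is not stated. The p-values measure the spread between the 3 libraries of a group, and that spread may be technical.

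Cells sense oxygen through prolyl hydroxylases, the EGLN enzymes, which mark the alpha subunits of hypoxia-inducible factor (HIF) for destruction when oxygen is present. When oxygen is short, HIF1A or EPAS1 protein pairs with ARNT, binds short DNA motifs and switches on genes for oxygen supply, pH control, mitochondrial turnover, matrix synthesis and glucose use. Glycolysis splits glucose to pyruvate in the cytosol, and tumour cells, osteosarcoma lines included, often express its enzymes at a high level and export lactate even with oxygen at hand. Because HIF alpha subunits are controlled mainly at the protein level, messenger RNA levels do not measure HIF activity.

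Total counts were 61815841 to 71237493 in the Lv_LINC00673 libraries and 76814723 to 87227980 in the Lv_NC libraries. LINC00673 itself had 479, 417 and 435 counts in Lv_LINC00673, against 709, 751 and 516 in Lv_NC, a log2 fold change of -0.41 (SE 0.16) that did not pass the threshold in edgeR (adjusted p = 0.0924) and did in DESeq2 (-0.44, adjusted p = 0.0429). The bone and mesenchymal markers VIM, SPARC, COL1A1, ALPL and RUNX2 were present in all 6 libraries, TWIST1 was at 0 in all 6, and COL1A2 had 13 counts in 1 library and 0 in the others. Of 11 markers of other cell types, PTPRC, CD3E and ALB had at most 13 counts in any library and LYZ and HBB had 0. The other 6 passed the filter on low counts, with 119 to 221 counts a library for EPCAM and CDH5 and 4 to 79 for CDH1, PECAM1, GFAP and DES. Their median log2 fold change was 0.29, and the lowest adjusted p among them was 0.519. Levels below are counts scaled to library size (CPM) with TMM factors, and a change is called at an adjusted p of 0.05 over all genes tested. Fold changes of all genes followed the GC content of their transcripts, with a median on the log2 scale of 0.55 over the 2212 genes with the lowest GC content and -0.26 over the 2212 with the highest. A fit with an offset for GC content and length in each library is therefore given beside the results as the offset values. Scaling by library totals shifted the log2 fold change of the median gene by 0.17 relative to TMM scaling, and the offset shifted it by 0.08. In bulk RNA of a culture, fewer cells that express a gene and less RNA per cell cannot be told apart.

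In the main test the hypoxia genes moved in both directions, and the glycolysis genes that were called were all lower. Of the 20 hypoxia genes, 7 rose and 4 fell in Lv_LINC00673, and 9 did not pass the test. Of the 23 glycolysis genes, 0 rose, 7 fell and 16 did not pass. At the adjusted threshold DESeq2 and limma-voom also called 0 of them higher. At an unadjusted p of 0.05 edgeR and limma-voom each counted 4 as higher, and DESeq2 counted 1. Over all tested genes, 14.3% were called higher and 12.5% lower. The median log2 fold change was 0.07 for the hypoxia genes and -0.05 for the glycolysis genes, against 0.05 for all tested genes. In the offset values 6 hypoxia genes were higher and 2 lower, while 12 glycolysis genes were higher and 5 lower, against 18.4% higher and 12.2% lower over the 16753 genes with an offset. With library totals, 8 hypoxia genes were higher and 3 lower, and 5 glycolysis genes were higher and 4 lower, against 18.5% higher and 5.58% lower over all genes. The offset with the other transcript lengths called 18.3% of all genes higher and 11.8% lower, limma on the deposited FPKM values 14.8% and 6.09%, and DESeq2 16.6% and 15.7%. How many glycolysis genes were called higher thus depended on the scaling. Without library 3 of Lv_LINC00673, 2 hypoxia genes were called lower, against 4 with all libraries. The CPM of the groups did not overlap at 13 hypoxia genes, 8 above and 5 below, and at 12 glycolysis genes, 4 above and 8 below, where 45.1% of all tested genes did not overlap. The 6 settings compared were TMM scaling, library totals, the offset, the offset with the other transcript lengths, the deposited FPKM values and DESeq2. Each time 6 genes were called higher (HIF1A, CA9, CA12, BNIP3L, KDM3A and P4HA1) and 3 lower (SLC2A1, PFKM and PFKFB3). The share of all tested genes called in all 6 settings was not computed, and the settings reuse the same 6 libraries. Fits on log2(FPKM + 0.1) and with a block for the library number were not among them. Those fits kept 9 and 5 of the 18 calls.

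**Figure D1:**
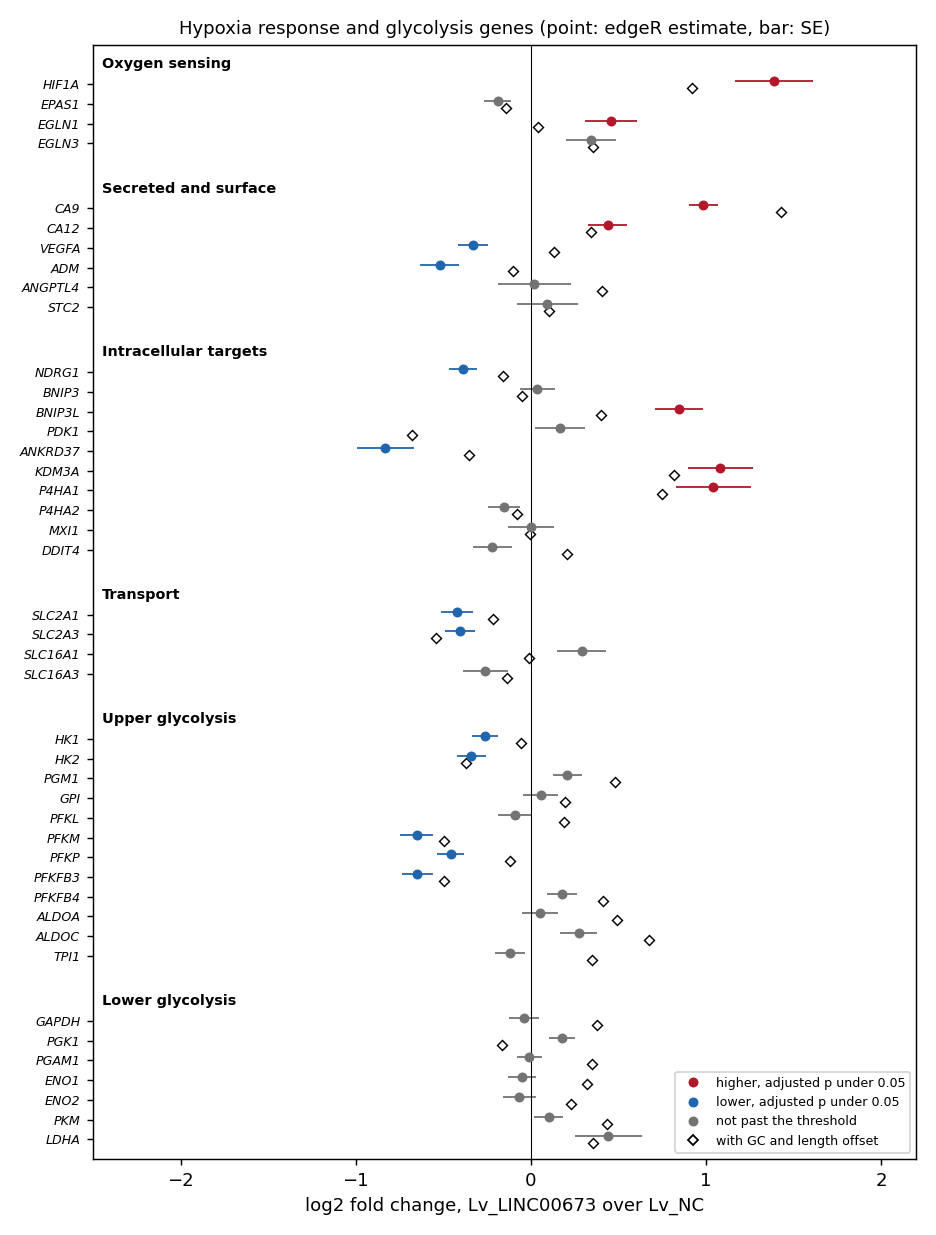
Log2 fold change of each of the 43 genes, Lv_LINC00673 over Lv_NC, on the horizontal axis, by role. Filled points are edgeR estimates with TMM scaling, bars are 1 SE, colours mark the call, and open diamonds are the values with the GC and length offset. Among the filled points HIF1A lies furthest to the right at 1.39 and ANKRD37 furthest to the left at -0.83, and most diamonds of lower glycolysis lie to the right of their points.

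Promoter windows of RefSeq (GRCh38.p14, 250 bases before to 50 after each transcript start) were at hand for 38 of the 43 genes. NDRG1, SLC2A3, SLC16A1, BNIP3L and VEGFA had no entry. The core of the HIF binding motif, ACGTG on one strand or CACGT on the other, was searched in each window, and overlapping matches were counted as 1 site. It was present in 27 of 70 windows of these genes (38.6%), against 21.4% of 35116 windows of all genes. By gene, a window with the letters was found for 3 of 6 genes that rose, 5 of 8 that fell and 15 of 24 that did not pass. The share by gene over all genes was not computed, and genes differ in their number of windows. By window, the letters were in 3 of 8 of genes that rose (37.5%) and 7 of 25 of genes that fell (28%). For genes that did not pass they were in 17 of 37 windows (45.9%). A match is a description of letters and shows no binding. The windows of 2 genes that rose and 2 that fell are printed below 5′ to 3′ on the gene's strand, since they let the letters be compared between genes that moved in opposite directions, with the motif letters in capitals.
CA9, chr9:35673678-35673977, plus strand: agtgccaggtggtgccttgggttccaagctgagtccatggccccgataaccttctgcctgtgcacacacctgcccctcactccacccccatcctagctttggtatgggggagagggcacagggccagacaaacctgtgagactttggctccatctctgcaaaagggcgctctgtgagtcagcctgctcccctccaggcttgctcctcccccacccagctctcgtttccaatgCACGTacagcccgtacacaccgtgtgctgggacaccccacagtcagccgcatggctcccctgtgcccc
P4HA1, chr10:73096817-73097116, minus strand: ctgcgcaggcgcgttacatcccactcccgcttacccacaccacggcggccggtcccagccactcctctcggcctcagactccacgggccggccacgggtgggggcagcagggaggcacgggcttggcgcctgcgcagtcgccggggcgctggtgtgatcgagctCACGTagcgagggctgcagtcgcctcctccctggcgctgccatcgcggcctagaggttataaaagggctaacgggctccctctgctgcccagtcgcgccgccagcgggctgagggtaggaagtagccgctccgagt
ANKRD37, chr4:185396591-185396890, plus strand: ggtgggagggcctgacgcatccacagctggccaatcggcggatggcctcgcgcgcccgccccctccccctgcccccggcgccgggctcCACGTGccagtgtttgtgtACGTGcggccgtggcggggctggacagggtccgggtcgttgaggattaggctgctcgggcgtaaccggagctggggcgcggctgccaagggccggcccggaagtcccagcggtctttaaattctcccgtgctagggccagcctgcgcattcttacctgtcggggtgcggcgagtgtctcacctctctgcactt
PFKFB3, chr10:6202682-6202981, plus strand: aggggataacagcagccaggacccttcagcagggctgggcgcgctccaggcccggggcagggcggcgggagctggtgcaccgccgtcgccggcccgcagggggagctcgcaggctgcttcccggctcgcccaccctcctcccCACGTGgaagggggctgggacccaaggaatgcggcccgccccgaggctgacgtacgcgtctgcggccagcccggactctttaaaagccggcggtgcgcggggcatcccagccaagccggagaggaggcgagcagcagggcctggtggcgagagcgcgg
The CA9 window has its site 18 bases before the start, that of P4HA1 86 bases before it and that of PFKFB3 108 bases before it. ANKRD37 has a pair of sites, which begin 162 and 143 bases before the start. The genes printed were chosen by name and all hold the letters, so their windows do not show how often the letters occur. PFKFB3 has 2 windows, and windows of a gene were ranked by their number of sites. HIF1A, CA12 and KDM3A rose, and ADM, SLC2A1 and HK1 fell, with no letters in any of their windows.

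Among the oxygen-sensing genes HIF1A rose, and the gene of the other main alpha subunit did not. HIF1A (chromosome 14, 61695513 to 61748258) encodes the HIF subunit found in nearly all cells. It had 58.9, 90.5 and 79.3 CPM in the Lv_LINC00673 libraries, against 37.4, 21.4 and 28.7 CPM in the Lv_NC libraries. The groups did not overlap, and library 2 was the highest of its group in Lv_LINC00673 and the lowest in Lv_NC. The log2 fold change was 1.39 (SE 0.22, adjusted p = 0.0055), a 2.61-fold higher level, and 0.92 in the offset values (adjusted p = 0.000751). As 3 antisense genes (HIF1A-AS1, HIF1A-AS2 and HIF1A-AS3) overlap HIF1A and the strand setting of the counts is unknown here, reads of both strands cannot be told apart. EPAS1, which encodes the HIF alpha subunit known from endothelium and kidney, had 92.7, 90.3 and 91.3 CPM in Lv_LINC00673 and 106, 101 and 106 CPM in Lv_NC. All Lv_LINC00673 libraries were below all Lv_NC libraries, yet the difference did not pass the test (log2 fold change -0.19, adjusted p = 0.102). The ratio of EPAS1 to HIF1A CPM was 1.57, 0.998 and 1.15 in Lv_LINC00673, against 2.83, 4.74 and 3.69 in Lv_NC. These ratios did not overlap, and the exact two-sided permutation p was 0.1, the smallest that 3 against 3 libraries can give.

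EGLN1, the main oxygen-sensing hydroxylase, rose by a smaller amount. It had 46.1, 56.0 and 55.9 CPM in Lv_LINC00673 and 45.9, 32.5 and 36.6 CPM in Lv_NC, so that library 1 of each group lay nearly at the same level. The log2 fold change of 0.46 (SE 0.15, adjusted p = 0.0488) became 0.04 in the offset values (adjusted p = 0.772). The call was also lost without library 2 or 3 of Lv_LINC00673 (adjusted p = 0.151 and 0.155) or library 2 or 3 of Lv_NC (0.142 and 0.15). EGLN3, a hydroxylase gene that HIF itself induces, had 21.2, 19.7 and 23.7 CPM in Lv_LINC00673 and 18.8, 17.7 and 14.6 CPM in Lv_NC. Its groups did not overlap, and it did not pass the test (log2 fold change 0.34, adjusted p = 0.113), though it did with library totals (0.51, adjusted p = 0.0373) and in the offset with the other transcript length (0.38, adjusted p = 0.0455).

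The carbonic anhydrase genes and the secreted factors moved apart. CA9 (chromosome 9, 35673928 to 35681159) encodes a surface enzyme that controls pH outside the cell and is a textbook marker of hypoxia. It had 135, 124 and 122 CPM in Lv_LINC00673, against 63.8, 65.2 and 63.5 CPM in Lv_NC. The libraries within each group lay close together and the groups far apart. The log2 fold change was 0.98 (SE 0.08, adjusted p = 0.0011), a 1.98-fold higher level. Its transcript has a GC content of 60.1%, among the 2212 genes of highest GC content, and its offset value was higher, at 1.43 (adjusted p = 2.65e-05). CA12, a related surface enzyme, had 36.0, 43.7 and 40.5 CPM in Lv_LINC00673 and 31.0, 29.2 and 28.5 CPM in Lv_NC. It rose by 0.44 on the log2 scale (SE 0.11, adjusted p = 0.0212). Without library 2 or 3 of Lv_LINC00673 its adjusted p was 0.0878 and 0.0803, and without library 2 or 3 of Lv_NC it was 0.0633 and 0.0838.

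VEGFA, the main growth factor of blood vessels, was lower. It had 93.0, 89.0 and 94.0 CPM in Lv_LINC00673 and 107, 119 and 121 CPM in Lv_NC. The log2 fold change was -0.33 (SE 0.09, adjusted p = 0.0245), but 0.13 in the offset values (adjusted p = 0.226) and -0.18 in the offset with the other transcript length (adjusted p = 0.0551). With the offset its direction thus depended on which transcript length was used. With library totals it was -0.16 and did not pass (adjusted p = 0.15). The call was lost without library 2 or 3 of Lv_LINC00673 (adjusted p = 0.0791 and 0.0769) and without library 2 or 3 of Lv_NC (0.0805 and 0.0915). ADM, which encodes the vessel-dilating peptide adrenomedullin, had 17.8, 17.1 and 18.1 CPM in Lv_LINC00673 and 26.3, 24.2 and 25.4 CPM in Lv_NC. It fell by 0.52 on the log2 scale (SE 0.11, adjusted p = 0.0121), with an offset value of -0.10 (adjusted p = 0.56). ANGPTL4, a secreted inhibitor of lipoprotein lipase, and STC2, a secreted glycoprotein, stood at low levels that overlapped between groups. ANGPTL4 averaged 4.98 ± 1.03 CPM in Lv_LINC00673 and 4.92 ± 0.78 CPM in Lv_NC (SD, n = 3 each). STC2 averaged 3.25 ± 0.0433 CPM in Lv_LINC00673 and 3.05 ± 0.335 CPM in Lv_NC (SD, n = 3 each).

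Of the intracellular targets 3 rose and 2 fell. BNIP3L, a mitochondrial protein that marks mitochondria for autophagy, had 106, 131 and 123 CPM in Lv_LINC00673, against 75.1, 54.2 and 70.9 CPM in Lv_NC. It rose by 0.85 on the log2 scale (SE 0.14, adjusted p = 0.00575; offset value 0.40, adjusted p = 0.00205). Its paralogue BNIP3, with the same known role, did not differ beyond the spread: 142, 135 and 153 CPM in Lv_LINC00673 and 130, 135 and 155 CPM in Lv_NC (log2 fold change 0.04, adjusted p = 0.816). RefSeq names 46 pseudogenes after BNIP3 and 0 after BNIP3L, so the BNIP3 level is uncertain, and its offset value went from -0.05 to 0.55 with the other transcript length. KDM3A, a histone demethylase, had 19.0, 27.7 and 21.8 CPM in Lv_LINC00673 and 12.5, 8.87 and 11.0 CPM in Lv_NC. Its log2 fold change was 1.08 (SE 0.19, adjusted p = 0.00678), and 0.81 in the offset values. P4HA1, a subunit of the enzyme that hydroxylates collagen, had 66.6, 96.3 and 82.0 CPM in Lv_LINC00673 and 47.4, 27.2 and 44.5 CPM in Lv_NC. Its log2 fold change was 1.04 (SE 0.22, adjusted p = 0.0109), and 0.74 in the offset values. HIF1A, BNIP3L, KDM3A and P4HA1 had the same order of libraries, with library 2 the highest in Lv_LINC00673 and the lowest in Lv_NC.

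NDRG1, a stress-induced gene and one of the highest of the list, was lower. It had 826, 752 and 768 CPM in Lv_LINC00673 and 959, 1076 and 1036 CPM in Lv_NC (adjusted p = 0.0107, log2 fold change -0.39 with an SE of 0.08). Its offset value was -0.16 (adjusted p = 0.0391), but -0.11 with the other transcript length (adjusted p = 0.0973), and without library 3 of Lv_LINC00673 its adjusted p was 0.0534. ANKRD37, a small ankyrin-repeat gene known as a HIF target, had 5.92, 5.89 and 4.91 CPM in Lv_LINC00673 and 10.3, 10.9 and 8.59 CPM in Lv_NC. The groups did not overlap, and its log2 fold change of -0.83 (SE 0.16, adjusted p = 0.00969) was the lowest of the 43 genes. In the offset values it was -0.35 (adjusted p = 0.106), and it was -0.62 with the other transcript length (adjusted p = 0.0115). LRP2BP and UFSP2 overlap ANKRD37 on chromosome 4, so its counts are uncertain. The other 5 genes did not pass and had overlapping groups. PDK1, a kinase that shuts the pyruvate dehydrogenase complex, had a log2 fold change of 0.17 that became -0.68 in the offset values (adjusted p = 0.00132). With the other transcript length its offset value was -0.12 (adjusted p = 0.357). P4HA2, MXI1 and DDIT4, a collagen hydroxylase subunit, a MYC antagonist and an inhibitor of mTOR signalling, had log2 fold changes of -0.15, 0.00 and -0.22.

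**Figure D2:**
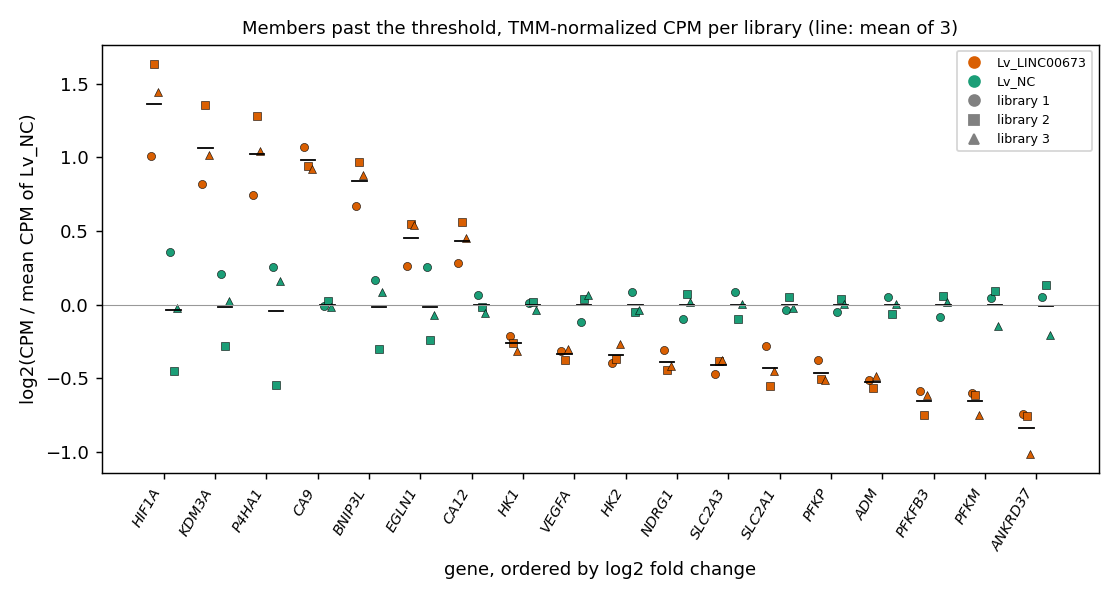
TMM-normalized CPM of the 18 genes past the threshold in each library, as log2 of the ratio to the mean CPM of Lv_NC on the vertical axis, with genes ordered by log2 fold change. Orange marks Lv_LINC00673, green Lv_NC, shapes mark the library number and lines are means of the log2 values. The groups overlap at none of the 18 genes, which were picked by the test on these same libraries. Of all tested genes, 45.1% did not overlap. The libraries of 1 group spread most for HIF1A, KDM3A and P4HA1.

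The glucose transporter genes SLC2A1 and SLC2A3 fell with TMM scaling, and the lactate carrier genes of the list did not pass. SLC2A12, a glucose transporter gene outside the list, was called higher and is given in the last section. SLC2A1 (chromosome 1, 42925353 to 42958868) encodes GLUT1, the basal glucose transporter. It had 466, 385 and 415 CPM in Lv_LINC00673, against 551, 587 and 558 CPM in Lv_NC. Its log2 fold change was -0.42 (SE 0.09, adjusted p = 0.0122), and -0.22 in the offset values (adjusted p = 0.0121). Without library 3 of Lv_LINC00673 the adjusted p was 0.0538. SLC2A3, which encodes the high-affinity transporter GLUT3, had 81.7, 86.8 and 87.3 CPM in Lv_LINC00673 and 120, 106 and 113 CPM in Lv_NC. It fell by 0.41 on the log2 scale (SE 0.09, adjusted p = 0.0118), with an offset value of -0.54. With library totals its log2 fold change was -0.24 (adjusted p = 0.08). The monocarboxylate carrier genes SLC16A1 and SLC16A3 had log2 fold changes of 0.29 (adjusted p = 0.16) and -0.26 (adjusted p = 0.166). The count table also holds a numbered copy row for SLC16A1 with 50.3 to 50.7% of its counts, and with both rows summed its log2 fold change was 0.30 (adjusted p = 0.134).

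In upper glycolysis 5 of 12 genes fell with TMM scaling, where 12.5% of all tested genes were called lower. The hexokinase and phosphofructokinase steps held all 5. In the offset values 7 of the 12 were higher and 3 lower, against 18.4% higher and 12.2% lower over all genes with an offset. HK1, the housekeeping hexokinase, had 491, 474 and 458 CPM in Lv_LINC00673 and 575, 577 and 556 CPM in Lv_NC (adjusted p = 0.0296, log2 fold change -0.26 with an SE of 0.07). HK2, the inducible hexokinase, had 167, 170 and 182 CPM in Lv_LINC00673 and 232, 212 and 213 CPM in Lv_NC (adjusted p = 0.0188, log2 fold change -0.34 with an SE of 0.08). The offset value of HK1 was -0.06 (adjusted p = 0.523) and that of HK2 -0.37 (adjusted p = 0.00424). With library totals neither passed (log2 fold changes -0.10 and -0.17, adjusted p = 0.255 and 0.146). HK1 kept its call without library 1 of Lv_LINC00673, and lost it without library 2 or 3 of that group (adjusted p = 0.0762 and 0.118) or library 1, 2 or 3 of Lv_NC (0.0697, 0.0945 and 0.0703). HK2 lost it without library 2 of Lv_LINC00673 (adjusted p = 0.0567) or library 1 or 3 of Lv_NC (0.0518 and 0.0535).

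Phosphofructokinase makes the committed step of glycolysis and has 3 subunit genes, of which 2 fell. PFKM (chromosome 12, 48105353 to 48146404), the muscle-type subunit, had 129, 127 and 116 CPM in Lv_LINC00673, against 201, 207 and 176 CPM in Lv_NC. Its log2 fold change was -0.65 (SE 0.09, adjusted p = 0.00452), a 1.57-fold lower level, and -0.50 in the offset values (adjusted p = 0.00176). PFKM shares its locus with SENP1. PFKP, the platelet-type subunit, had 264, 242 and 241 CPM in Lv_LINC00673 and 330, 351 and 344 CPM in Lv_NC. It fell by 0.46 on the log2 scale (SE 0.08, adjusted p = 0.00669), with an offset value of -0.12 (adjusted p = 0.178). PFKL, the liver-type subunit, had 260, 216 and 219 CPM in Lv_LINC00673 and 235, 256 and 250 CPM in Lv_NC. These overlap and did not pass (log2 fold change -0.09, adjusted p = 0.536), and the offset value was 0.19 (adjusted p = 0.0363). PFKFB3 (chromosome 10, 6144921 to 6326637) makes the sugar bisphosphate that activates phosphofructokinase. It had 64.9, 58.0 and 63.6 CPM in Lv_LINC00673, against 92.1, 102 and 98.6 CPM in Lv_NC. The groups did not overlap, and the log2 fold change was -0.65 (SE 0.09, adjusted p = 0.00432), with an offset value of -0.50 (adjusted p = 0.00093). PFKFB4, its paralogue, had 115, 102 and 104 CPM in Lv_LINC00673 and 97.0, 96.1 and 91.8 CPM in Lv_NC. All Lv_LINC00673 libraries lay above all Lv_NC libraries, and the difference did not pass (log2 fold change 0.17, adjusted p = 0.165) except in the offset values (0.41, adjusted p = 0.00345), with library totals (0.34, adjusted p = 0.0137) and in the FPKM values.

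The other 5 genes of upper glycolysis did not pass with TMM scaling and the main filter on low counts. PGM1, which links glycogen to glycolysis, and ALDOC, the brain-type aldolase, had groups that did not overlap. PGM1 had 112, 106 and 104 CPM in Lv_LINC00673 and 90.2, 92.1 and 95.8 CPM in Lv_NC (log2 fold change 0.21, adjusted p = 0.089; offset value 0.48). ALDOC had 127, 110 and 106 CPM in Lv_LINC00673 and 90.4, 103 and 90.1 CPM in Lv_NC (log2 fold change 0.27, adjusted p = 0.085; offset value 0.67). With a stricter filter of at least 1 CPM in 3 libraries, PGM1 and ALDOC passed (log2 fold changes 0.24 and 0.31, adjusted p = 0.0417 and 0.0446). GPI, ALDOA and TPI1, which convert hexose and triose phosphates, had log2 fold changes of 0.06, 0.05 and -0.12, with overlapping groups. Their offset values were 0.20, 0.49 and 0.35. ALDOA shares its locus with the protein-coding gene LOC112694756, and GPI has a numbered copy row with 4.76 to 11.0% of its counts. Summed over both rows GPI had a log2 fold change of 0.06 (adjusted p = 0.689).

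The genes of lower glycolysis, which take triose phosphate to lactate, held the most abundant of the list. With TMM scaling in edgeR 0 of 7 passed, and at the same adjusted threshold 0 passed with DESeq2 or limma-voom. At an unadjusted p of 0.05 edgeR and limma-voom each counted 2 as higher, and DESeq2 counted 1. Per length, GAPDH averaged 10081 FPKM in Lv_LINC00673 and 9271 FPKM in Lv_NC, ENO1 3105 FPKM in Lv_LINC00673 and 2880 FPKM in Lv_NC, and PKM 1293 FPKM in Lv_LINC00673 and 1075 FPKM in Lv_NC. The 19 genes of the enzymes and regulators of upper and lower glycolysis held 3.38, 3.12 and 3.12% of all counts in the Lv_LINC00673 libraries, against 2.85, 2.95 and 2.87% in the Lv_NC libraries. This share of raw counts was higher in every Lv_LINC00673 library, but the TMM-scaled sums overlapped between groups. The summed CPM of lower glycolysis was 26584, 23430 and 23629 in Lv_LINC00673, against 23955, 25336 and 24274 in Lv_NC. That of upper glycolysis was 6311, 5340 and 5624 in Lv_LINC00673, against 5966, 6448 and 5969 in Lv_NC. GAPDH, often used as a constant reference gene, had 14310, 11735 and 12291 CPM in Lv_LINC00673 and 12453, 13590 and 13374 CPM in Lv_NC (adjusted p = 0.774, log2 fold change -0.04 with an SE of 0.09). Its offset value was 0.38 (adjusted p = 0.000774), and RefSeq names 65 pseudogenes after it. PGAM1, ENO1, ENO2 and PKM had log2 fold changes of -0.01, -0.05, -0.07 and 0.10 with overlapping groups, and 0.35, 0.32, 0.23 and 0.43 in the offset values. PGK1, the first ATP-making enzyme of the pathway, had 1748, 1636 and 1779 CPM in Lv_LINC00673 and 1578, 1545 and 1448 CPM in Lv_NC. Its groups did not overlap, its log2 fold change was 0.18 (adjusted p = 0.113), and its offset value was -0.17. Whether the bulk of lower glycolysis was level or higher thus depended on the scaling: 0 of 7 passed with TMM, 2 with library totals and 5 with the offset, all of them higher. Over all genes, 14.3% were called higher with TMM, 18.5% with library totals and 18.4% with the offset.

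LDHA, which turns pyruvate to lactate, was counted on a pair of rows. The row of that name had 45869, 66425 and 48501 counts in Lv_LINC00673 and 45729, 36745 and 48996 in Lv_NC. A numbered copy row had 88421, 67839 and 90306 counts in Lv_LINC00673 and 74820, 70305 and 56158 in Lv_NC, which is 50.5 to 65.8% of the sum. How reads were split between these rows is unknown here. The named row alone had 627, 992 and 711 CPM in Lv_LINC00673 and 591, 454 and 672 CPM in Lv_NC, which overlap (log2 fold change 0.44, SE 0.19, adjusted p = 0.119). With both rows summed, a step chosen after the data were seen, the levels were 1835, 2006 and 2036 CPM in Lv_LINC00673, against 1558, 1321 and 1442 CPM in Lv_NC. The summed level did not overlap between groups, with a log2 fold change of 0.44 (SE 0.09, adjusted p = 0.00914) and an offset value of 0.36 (adjusted p = 0.000755). The estimate was the same for the single row and the sum, and the libraries of a group lay closer together in the sum.

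**Figure D3:**
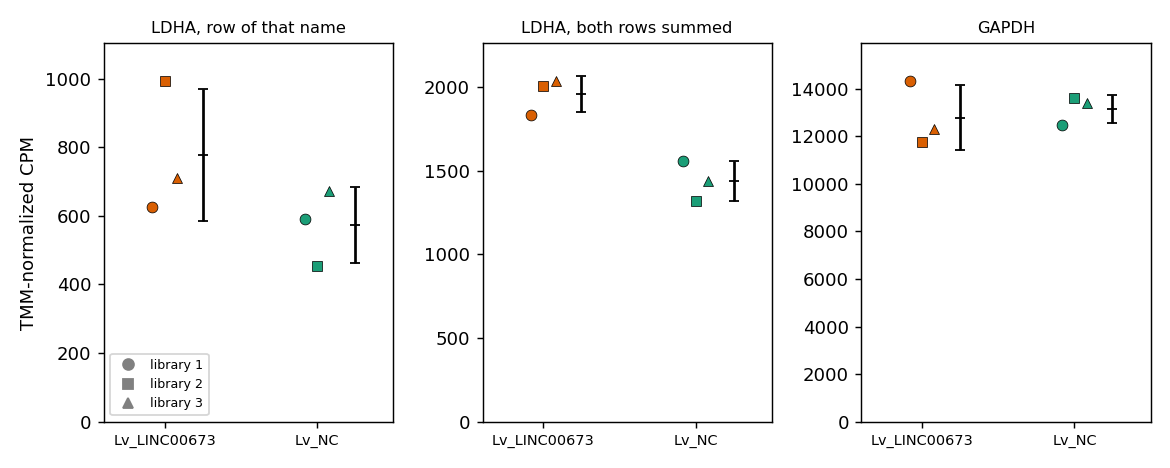
TMM-normalized CPM per library (vertical axes from 0) of LDHA on the row of that name, of LDHA with its numbered copy row added, and of GAPDH. Shapes mark the library number, orange is Lv_LINC00673 and green Lv_NC, and the bars are mean ± SD of 3 libraries. The groups overlap for the named LDHA row and for GAPDH, and lie apart for the summed LDHA rows, at 1835 to 2036 CPM in Lv_LINC00673 and 1321 to 1558 CPM in Lv_NC.

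Ratios of isozyme genes within a library do not depend on library scaling, but they do carry the trend with GC content and length. Of 8 ratios computed, 4 did not overlap between groups, each with an exact two-sided permutation p of 0.1, the smallest possible here, and an adjusted p of 0.2. PFKP to PFKL was 1.01, 1.12 and 1.10 in Lv_LINC00673, against 1.41, 1.37 and 1.38 in Lv_NC. ALDOC to ALDOA was 0.0616, 0.0678 and 0.0607 in Lv_LINC00673, against 0.0554, 0.0547 and 0.0524 in Lv_NC. SLC16A3 to SLC16A1 was 0.365, 0.253 and 0.272 in Lv_LINC00673, against 0.387, 0.514 and 0.397 in Lv_NC, and EPAS1 to HIF1A is given above. The largest of these shifts was that of EPAS1 to HIF1A, with a log2 difference of -1.59, while PFKP to PFKL shifted by -0.37. In the offset values EPAS1 and HIF1A had log2 fold changes of -0.14 and 0.92, PFKP and PFKL of -0.12 and 0.19, and ALDOC and ALDOA of 0.67 and 0.49. SLC16A3 and SLC16A1 had offset values of -0.14 (adjusted p = 0.386) and -0.01 (adjusted p = 0.93), which lie closer together than without the offset (-0.26 and 0.29). The ratios HK2 to HK1, ENO2 to ENO1, SLC2A3 to SLC2A1 and EGLN3 to EGLN1 overlapped between groups (exact permutation p = 0.4, 0.8, 0.8 and 0.6).

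The members that rose had transcripts of lower GC content than those that fell. The median GC content was 44.1% for the 7 that rose, 54.8% for the 11 that fell and 53.6% for the 25 that did not pass. Over the 43 genes Spearman's rho between log2 fold change and GC content was -0.45, and it was -0.62 over the 20 hypoxia genes and -0.16 over the 23 glycolysis genes. These are descriptions across genes of the same 6 libraries. The libraries differed in the same measure: relative to the mean of all 6, the 2212 genes of lowest GC content deviated by 0.02, 0.48 and 0.36 on the log2 scale in Lv_LINC00673 libraries 1 to 3, against -0.04, -0.57 and -0.22 in Lv_NC libraries 1 to 3. Library 1 of both groups was near 0, and library 2 lay at the 2 ends, as it did for HIF1A, BNIP3L, KDM3A and P4HA1. Without library 2 of both groups, chosen after the data were seen, 5 hypoxia genes were called higher and 0 lower, and 0 glycolysis genes higher and 2 lower. At an unadjusted p of 0.05 edgeR then counted 4 hypoxia genes as lower and 1 glycolysis gene as higher. Among the genes that rose, CA9 had the highest GC content, at 60.1%, and CA12 came next at 50.2%.

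**Figure D4:**
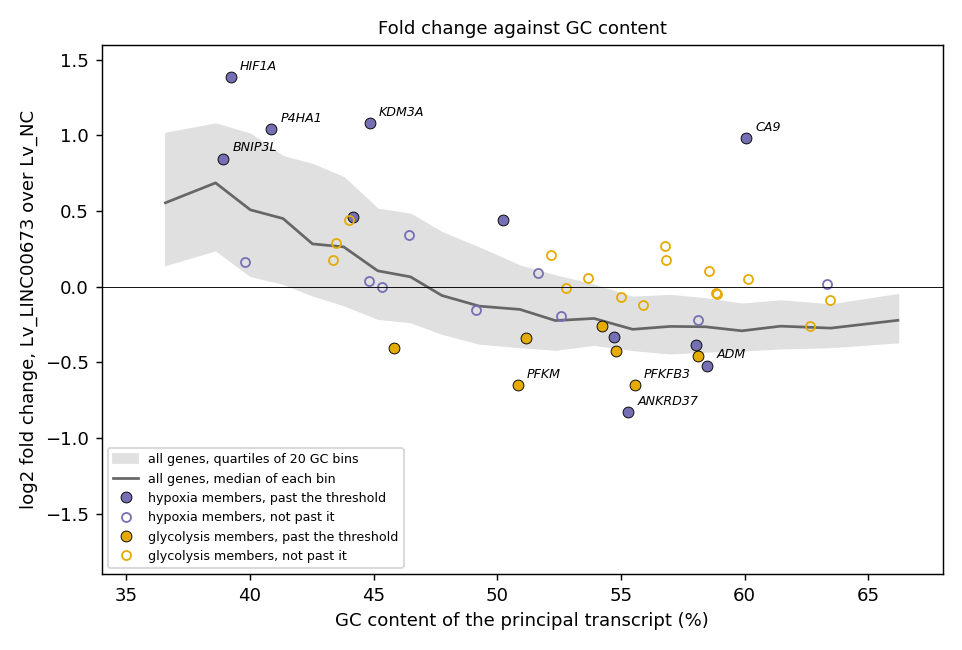
Log2 fold change, Lv_LINC00673 over Lv_NC, on the vertical axis against GC content of the principal transcript in percent. The line is the median and the band the quartiles of all genes in 20 bins of GC content, and points are the 43 genes, filled where past the threshold. The line falls with GC content, and CA9 at 60.1% GC stands above the band while PFKM, PFKFB3 and ANKRD37 stand below it.

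Genes next to these in the same pathways were read from the same fit, and of 79 tested, 15 rose and 20 fell, where 14.3% of all tested genes were called higher and 12.5% lower. These shares are the background for the counts of each neighbouring list. Of 10 genes of the HIF pathway core, 1 rose and 2 fell. CUL2, the scaffold of the ubiquitin ligase that destroys HIF alpha subunits, had 18.4, 22.3 and 17.3 CPM in Lv_LINC00673 and 11.2, 6.79 and 9.35 CPM in Lv_NC (adjusted p = 0.00805, log2 fold change 1.09 with an SE of 0.20; offset value 0.59). ELOC and EGLN2, a ligase adaptor and a further oxygen-sensing hydroxylase, fell by 0.50 and 0.30 on the log2 scale (adjusted p = 0.0207 and 0.0406). The offset value of EGLN2 was 0.00 (adjusted p = 0.988). ELOC lost its call without library 2 or 3 of Lv_LINC00673 or library 2 of Lv_NC (adjusted p = 0.0627, 0.0609 and 0.0676). EGLN2 lost it without library 2 or 3 of Lv_LINC00673 (0.111 and 0.142) or library 1, 2 or 3 of Lv_NC (0.0769, 0.136 and 0.071). ARNT and VHL, the partner of HIF and its recognition protein, had log2 fold changes of 0.10 and -0.08 and did not pass. Of 24 other hypoxia targets, 6 rose and 5 fell. PLOD2, a collagen lysyl hydroxylase, and STC1, a secreted glycoprotein, rose with log2 fold changes of 1.14 (SE 0.22, adjusted p = 0.0087) and 1.05 (SE 0.17, adjusted p = 0.00538). HILPDA, a lipid droplet protein, and CITED2, which competes with HIF for a coactivator, had log2 fold changes of -0.77 (SE 0.12, adjusted p = 0.00534) and -0.67 (SE 0.11, adjusted p = 0.00614). These 4 kept their calls in the offset values, at 0.64, 0.80, -0.41 and -0.55.

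Pyruvate can enter the mitochondria or leave as lactate, and of 16 genes of this branch point 3 rose and 5 fell, against 14.3% higher and 12.5% lower over all tested genes. PDK4, a kinase that shuts the pyruvate dehydrogenase complex, had 4.29, 5.81 and 4.56 CPM in Lv_LINC00673, against 1.80, 1.73 and 1.26 CPM in Lv_NC. Its log2 fold change of 1.61 (SE 0.22, adjusted p = 0.00429; offset value 1.16) came at a low level. DLD, the lipoamide dehydrogenase subunit, and PDPR, a regulatory subunit of the phosphatase that reopens the complex, rose with log2 fold changes of 0.93 and 0.69. MPC2, a subunit of the mitochondrial pyruvate carrier, had 29.8, 31.6 and 33.1 CPM in Lv_LINC00673 and 46.1, 54.4 and 52.5 CPM in Lv_NC (adjusted p = 0.00502, log2 fold change -0.70 with an SE of 0.11; offset value -0.87). PDK4 and MPC2, which were named for the size of their change, thus moved in opposite directions in these libraries. PDK1, a kinase gene among the hypoxia genes above, did not pass in edgeR with TMM scaling (log2 fold change 0.17, adjusted p = 0.434). Its offset value was -0.68.

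The pentose phosphate pathway, which branches from glucose 6-phosphate to make NADPH and ribose, held 6 lower genes of 9, where 12.5% of all tested genes were called lower. With edgeR, DESeq2 and limma-voom 0 of the 9 rose at the adjusted threshold. At an unadjusted p of 0.05 each of these methods counted 1 as higher. The median log2 fold change in edgeR was -0.57. RPIA, which makes ribose 5-phosphate, had 42.7, 36.5 and 42.1 CPM in Lv_LINC00673 and 79.6, 78.5 and 62.5 CPM in Lv_NC, a log2 fold change of -0.86 (SE 0.12, adjusted p = 0.0045). TKT, transketolase, and RPE, the epimerase of the pathway, had log2 fold changes of -0.71 (adjusted p = 0.00454) and -0.62 (adjusted p = 0.0209). Without library 3 of Lv_LINC00673 the adjusted p of RPE was 0.0715. The groups did not overlap at any of these 3 genes. In the offset values RPIA, TKT and RPE stayed lower, at -0.65, -0.42 and -0.99, and over the 9 genes 1 was higher and 5 were lower.

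**Figure D5:**
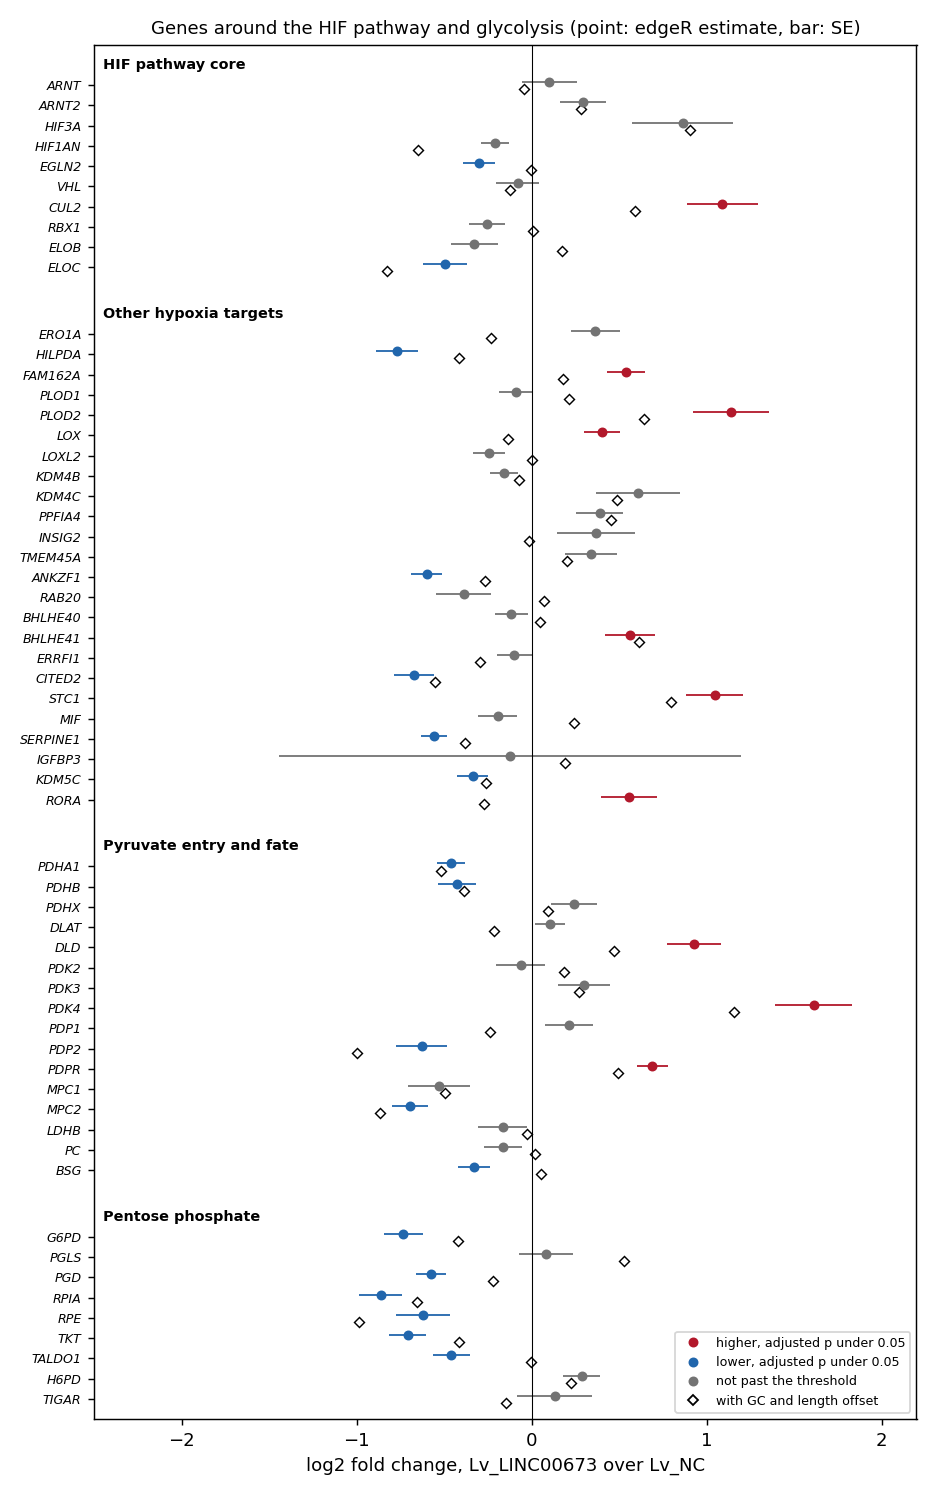
Log2 fold change, Lv_LINC00673 over Lv_NC, on the horizontal axis for tested genes of the HIF pathway core, other hypoxia targets, pyruvate entry and fate, and the pentose phosphate pathway. Filled points are edgeR estimates with TMM scaling, bars are 1 SE, colours mark the call, and open diamonds are the values with the GC and length offset. In the pentose phosphate group 6 of 9 points are marked lower, and PDK4 at 1.61 lies furthest to the right.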

How the data were processed

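Total RNA of U2OS cells was sequenced from libraries made with a TruSeq kit, per the labels. Raw read counts, whole numbers without normalization, and FPKM values were deposited by the authors for each gene, with 0 columns left unmatched to a library. The build was hg38, per the submitters' processing notes. No source used here names the aligner, the counter, the annotation release or the strand setting.

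The main test was the robust, two-sided quasi-likelihood test of edgeR 4.0.16 in R 4.3.3 on counts past filterByExpr, with TMM factors, Benjamini-Hochberg adjustment over 21933 tested genes and a threshold of 0.05. An adjusted p in the text comes from it unless another fit is named. The SE follows from the F statistic and the log2 fold change. The script was tested on simulated data. The GC and length offset was a smooth fit per library with mgcv 1.9.3 over principal transcripts of GENCODE, for 16753 genes and all 43 members. The other transcript lengths were those nearest to the length that counts and FPKM imply. Further alternatives were DESeq2 1.42.0 and limma 3.58.1 (voom, and log2(FPKM + 1) or log2(FPKM + 0.1)), other factors and filters, a replicate block and leaving out each library. Numbered copy rows were summed only where stated. Coordinates and promoters are from RefSeq (GRCh38.p14).

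The members and gene lists were chosen with earlier results of these data known. All 43 genes are reported. Of the neighbouring lists, up to 4 genes of each role were named, those with the largest change past the threshold and a mean of at least 1 CPM, and ARNT and VHL were named after their values were seen. Some genes of the neighbouring and marker lists are not reported here by name, and the counts over the neighbouring lists include them.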

Additional observations from a re-analysis of the deposited data

How the results depend on the processing

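The 18 calls were kept with DESeq2, limma-voom and the stricter filter, and 17 of them with RLE factors, upper-quartile factors, no filter or non-robust settings. No call changed sign under these 7 settings. The offset kept 12 calls, lost 5, turned VEGFA and gained 13. The offset with the other lengths kept 12, lost 6 and turned 0, with VEGFA at -0.18 (adjusted p = 0.0551), library totals and log2(FPKM + 1) kept 14 each, and log2(FPKM + 0.1) kept 9. Leaving out 1 library kept 12 to 18 calls, and leaving out library 2 of both groups kept 7.

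No pairing by replicate number was seen: deviations of same-numbered libraries correlated at -0.42, -0.36 and 0.04, and not every library correlated best with its own number. Deviations from a group mean depend on each other and carry the trend with GC content, so this check cannot exclude a pairing. With a replicate block in edgeR 3 hypoxia genes were higher and 0 lower (4 at an unadjusted p of 0.05), 2 glycolysis genes were lower, and 800 of all genes were higher and 408 lower, with 5 of the 18 calls kept. With the offset and the block together these were 1 hypoxia gene lower, 10 glycolysis genes higher, 2037 genes higher and 1405 lower.

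Lower calls among the hypoxia genes numbered 1 with log2(FPKM + 0.1), 2 with the offset, 1 with the offset and the other lengths, 0 without library 2 of both groups, and 2 to 4 without 1 library. Higher calls among the glycolysis genes numbered 5 with library totals, 2 with the stricter filter, 4 with log2(FPKM + 1), 12 with the offset, 11 with the other lengths and 1 with copy rows summed. Lower calls among them numbered 4 with library totals, 4 and 2 with log2(FPKM + 1) and log2(FPKM + 0.1), and 2 without library 2 of both groups. Over all genes, 1453 to 3254 were higher and 1172 to 3269 lower without 1 library, and 813 and 486 without library 2 of both groups. Lower calls numbered 1224 with library totals and 1336 and 580 with log2(FPKM + 1) and log2(FPKM + 0.1).

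Log2 fold changes whose sign turned in all 3 offset fits (the offset, the offset and block, and the offset with the other lengths) were those of TPI1 (0.35, 0.35 and 0.31), GAPDH (0.38, 0.38 and 0.44), PGAM1 (0.35, 0.35 and 0.36), ENO1 (0.32, 0.32 and 0.38), ENO2 (0.23, 0.23 and 0.28), PFKL (0.19, 0.19 and 0.19) and PDK1 (-0.68, -0.67 and -0.12). Those of DDIT4 (0.21, 0.22 and 0.22), PGK1 (-0.17, -0.17 and -0.16), SLC16A1 (-0.01, -0.01 and -0.06) and MXI1 (-0.01, -0.01 and -0.18) turned too and passed in none of these fits. VEGFA (0.13 and 0.13) and BNIP3 (-0.05 and -0.05) turned in the offset and in the offset and block only. With library totals the values of P4HA2, PFKL, TPI1, GAPDH, PGAM1, ENO1 and ENO2 became positive, at 0.01 to 0.16, without passing. The cause was not tested. Counts of every member were high enough to be tested, but 3 libraries a group limit which changes can pass. A gene that did not pass may still differ.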

Other observations

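Genes of glycogen and hexose metabolism were listed beside glycolysis, and of 20 tested 5 rose and 2 fell, against 14.3% higher and 12.5% lower over all tested genes, with 2 further genes, FBP1 among them, at or near 0 counts and not tested. PGM2L1, which makes glucose 1,6-bisphosphate, averaged 4.74 ± 1.18 CPM in Lv_LINC00673 and 1.49 ± 0.684 CPM in Lv_NC (SD, n = 3 each; edgeR adjusted p = 0.0108, log2 fold change 1.66 with an SE of 0.34; offset value 0.94). GBE1, the glycogen branching enzyme, averaged 45.5 ± 3.78 CPM in Lv_LINC00673 and 26.9 ± 4.09 CPM in Lv_NC (adjusted p = 0.00741, log2 fold change 0.76 with an SE of 0.14; offset value 0.56). SLC2A12, a glucose transporter gene, averaged 4.37 ± 1.41 CPM in Lv_LINC00673 and 2.01 ± 0.748 CPM in Lv_NC (adjusted p = 0.0345, log2 fold change 1.12 with an SE of 0.32). In the offset values SLC2A12 (0.66, adjusted p = 0.0848) did not pass, and 4 of the 20 genes were higher and 3 lower. The call of PGM2L1 was lost without library 3 of Lv_NC (adjusted p = 0.0505). That of SLC2A12 was lost without library 2 or 3 of Lv_LINC00673 (0.135 and 0.0802) or library 1 or 2 of Lv_NC (0.0703 and 0.0846).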
